A study of Mus musculus with 8 samples.

Results

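Transcripts of 7 genes were followed in mouse bone marrow-derived macrophages (BMDMs): the interferon receptor chains Ifnar1, Ifnar2, Ifngr1 and Ifngr2, and the feedback genes Socs1, Socs3 and Cish. The genes were chosen by name and matched to their Ensembl identifiers, and all 7 were found among the 54532 genes of each count table. All 7 also passed the filter on low counts and belonged to the 14591 genes tested. BMDMs are macrophages grown from marrow precursors, here from mice aged 6 to 8 weeks, over 7 days in medium conditioned by L929 cells, a fibroblast line that secretes the growth factor CSF1. The 8 libraries formed 4 groups of 2: wild-type cells (WT), cells of Trex1-/- mice (Trex1-KO), and Trex1-KO cells given the STING antagonist H151 at 500 nM or the STING antagonist SN-011. Exposure to antagonist, or to the vehicle DMSO in the WT and Trex1-KO groups, lasted 12 h. The labels state the concentration for H151 alone, and the methods of the study state the same nominal concentration for SN-011, so the antagonists were compared at matched nominal dose and time. No WT library received an antagonist. The study describes the libraries of a group as independent experiments, the labels name no animal, and p-values measure the spread between such libraries. Whether the SN-011 libraries were prepared together with the others is not given in the sources used here, so a preparation effect and the SN-011 treatment cannot be told apart.

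TREX1 is a DNA exonuclease that removes DNA from the cytosol. Without it, DNA can activate the sensor cGAS and its adaptor STING, and this route is known for inducing type I interferons. Type I interferons bind the receptor made of IFNAR1 and IFNAR2, and interferon gamma binds the receptor made of IFNGR1 and IFNGR2. Both receptors act through Janus kinases (JAKs) that phosphorylate STAT transcription factors. SOCS1, SOCS3 and CIS (the product of Cish) are SH2-domain proteins whose genes are switched on by STATs and which then dampen JAK-STAT signalling, SOCS1 mainly at interferon receptors, SOCS3 mainly at receptors that use STAT3, and CIS at receptors that use STAT5.

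STATs bind DNA at GAS elements, and the complex that holds STAT2 and IRF9 binds at ISRE elements. Promoter windows of 300 bases, from 250 before to 50 after the start site, were taken from RefSeq on build GRCm38.p6, and all 7 genes had a window. Both strands were searched for the GAS letters TTCNNNGAA, for the same element with a gap of 4 bases, and for the ISRE core, which is GAAA, any 2 bases and GAAA. Of the 32851 windows of all genes, 8.30% held the GAS letters, 6.95% the wider form and 3.44% the ISRE core. Socs1 was the member whose window held the ISRE core, in 2 overlapping copies from -83 to -74 and from -77 to -68 relative to the start site. Cish held 2 GAS matches, from 1 to 9 and from 12 to 20. Ifnar1 held a GAS match from -5 to 4, Ifnar2 from -214 to -206 and Socs3 from -154 to -146, and Ifngr2 held the wider form from -91 to -82. The Ifngr1 window held none of the 3 motifs. A match is a match of letters and not a measured binding site. The matched stretches are shown because the genes differ in which element they hold. Each is written 5′ to 3′ on the gene's own strand with the matched bases in capitals, and for Socs1 the whole stretch before the start site is given. The Socs1 stretch is chr16:10785537-10785786 on the minus strand, and the Cish stretch is chr9:107296654-107296683 on the plus strand, downstream of the Cish start in the GENCODE annotation. The others are chr16:91485200-91485228 (Ifnar1, plus), chr16:91372554-91372592 (Ifnar2, plus), chr16:91546953-91546992 (Ifngr2, plus) and chr11:117969497-117969535 (Socs3, minus), of which the Socs3 stretch lies inside the longer Socs3 span of GENCODE.
Socs1: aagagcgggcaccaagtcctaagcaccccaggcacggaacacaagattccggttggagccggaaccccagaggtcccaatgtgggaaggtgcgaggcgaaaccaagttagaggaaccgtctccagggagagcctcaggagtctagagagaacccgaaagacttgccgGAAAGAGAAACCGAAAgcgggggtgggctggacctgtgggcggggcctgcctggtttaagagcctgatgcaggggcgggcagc
Cish: cagttTTCCTGGAAagTTCTTGGAAatctg
Socs3: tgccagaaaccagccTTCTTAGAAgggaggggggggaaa
Ifnar1: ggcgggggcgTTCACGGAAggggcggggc
Ifnar2: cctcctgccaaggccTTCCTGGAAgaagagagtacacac
Ifngr2: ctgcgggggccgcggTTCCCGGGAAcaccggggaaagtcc

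Libraries held between 11845470 and 17284863 counts over 20185 to 21127 genes. Levels are in CPM, counts scaled to library size after edgeR's TMM normalization, on which scale a count was worth 0.0582 to 0.0849 CPM and the floor of 3 counts 0.175 to 0.255 CPM. A gene is said to be called where edgeR's quasi-likelihood test gave a Benjamini-Hochberg adjusted p under 0.05 over all tested genes. The deletion of Trex1 could not be checked, because Trex1 had 0 counts in all 8 libraries, WT included. All exons of Trex1 lie within exons of Atrip, and Atrip itself was at 14.1 and 17.4 CPM in WT and between 54.3 and 70.4 CPM in the 6 knockout libraries. The 9 macrophage markers summed to between 31038 and 33305 CPM in every library, so the cells expressed the genes of the labelled cell type. Summed neutrophil markers were at 7.66 and 8.39 CPM in WT and at 48.4 to 78.7 CPM in the knockout libraries. Summed stromal cell markers were at 2099 and 2300 CPM in WT and at 862 to 1221 CPM in the knockout libraries. In such bulk samples, fewer cells of a type and less RNA per cell cannot be told apart.

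The receptor chains were abundant transcripts in every group and the feedback genes were not. Per kilobase of exon, Ifngr1, the chain that binds interferon gamma, stood at 148.1 ± 7.21 CPM per kb in WT (SD, n = 2), above 98.3% of 14586 tested genes with a length. Ifnar2, which holds the high-affinity site for type I interferons, followed at 56.8 ± 0.826, Ifngr2, the signalling partner of IFNGR1, at 52.0 ± 1.09 and Ifnar1, the partner of IFNAR2, at 38.7 ± 2.31 CPM per kb. Socs3 reached 4.17 ± 1.19 CPM per kb, near the middle of all genes at percentile 47.4. Cish, at 0.315 ± 0.0728, and Socs1, at 0.278 ± 0.0353 CPM per kb, were at percentiles 8.08 and 7.01. Neighbours in this order did not overlap between libraries, apart from Cish and Socs1 in WT. In all 3 knockout groups the order of the receptor chains was the same as in WT, and Socs1 stood above Cish without overlap. The summed receptor chains ran from 1027 to 1113 CPM over all 8 libraries.

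**Figure D1:**
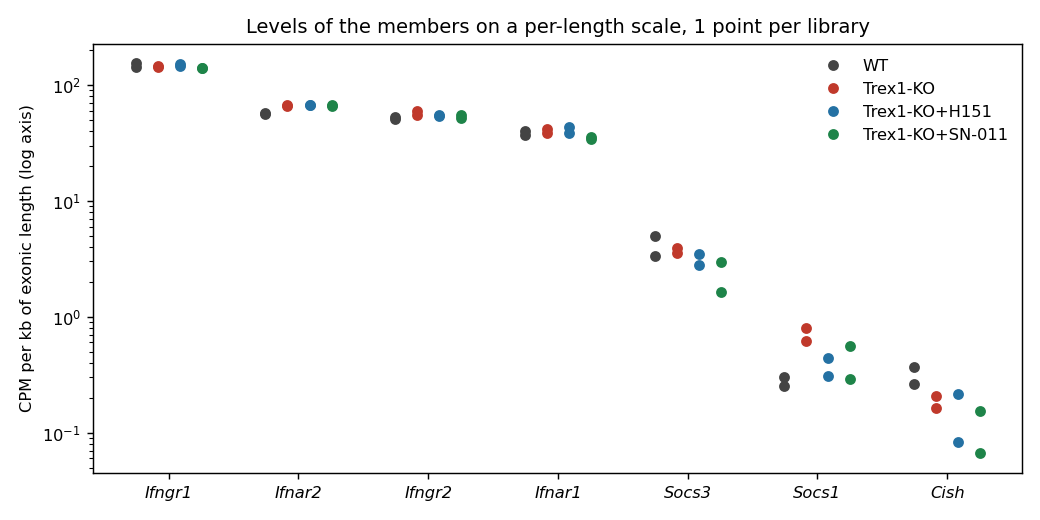
Level of each gene in each library, as TMM-normalized CPM per kilobase of exonic length on a log axis; each point is 1 library and colours give the 4 groups. The 4 receptor chains lie between 34.1 and 153.2 CPM per kb and the 3 feedback genes between 0.0662 and 5.02 CPM per kb.

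Loss of Trex1 was compared with WT under vehicle in both groups. Socs1 and Ifnar2 were called higher in Trex1-KO, by 2.53-fold and 1.18-fold, and Ifnar1, Ifngr1, Ifngr2, Socs3 and Cish were not called. That is 2 of 7 genes, where 16.4% of all tested genes were called in either direction and 9.27% were called higher. These were 1352 genes higher and 1038 lower, and with library sizes from total counts alone 946 higher and 1598 lower. Both Trex1-KO libraries lay above both WT libraries for 3 of the 7 genes and below them for 1. The libraries did not overlap for 56.1% of all tested genes, with 28.6% above and 27.5% below.

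Among the receptor chains, Ifnar2 (ENSMUSG00000022971, chromosome 16, 91372783 to 91405589, build GRCm38) was at 187.0 and 190.9 CPM in the WT libraries and at 221.0 and 224.0 CPM in the Trex1-KO libraries. The groups did not overlap, and libraries of a group lay closer to each other than to the other group. The log2 fold change was 0.24 with a 95% interval of 0.12 to 0.35 (SE 0.0551, adjusted p = 0.0088). The difference was small, and its call depended on the scaling: with library sizes from total counts alone the log2 fold change was 0.15 (adjusted p = 0.0837). The call was also lost without WT replicate 1 (log2 fold change 0.21, adjusted p = 0.101), WT replicate 2 (0.24, 0.0556), Trex1-KO replicate 1 (0.23, 0.0532) or Trex1-KO replicate 2 (0.23, 0.0554), each of which leaves a group with 1 library that is assumed to vary like the others. Of the exonic bases of Ifnar2, 9.46% overlap the gene Gm21970, which had 0 counts in every library.

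Ifnar1 (ENSMUSG00000022967, chromosome 16, 91485238 to 91507441) was at 239.4 and 220.0 CPM in WT and at 249.3 and 229.2 CPM in Trex1-KO, and the groups overlapped. Its log2 fold change was 0.06 (interval -0.10 to 0.22, adjusted p = 0.663). Ifngr1 (ENSMUSG00000020009, chromosome 10, 19591949 to 19610229) was at 407.1 and 436.1 CPM in WT and at 406.3 and 415.8 CPM in Trex1-KO, also with overlap, and its log2 fold change was -0.04 (interval -0.16 to 0.08, adjusted p = 0.735). For these chains the intervals leave room for changes of at most 0.22 on the log2 scale in either direction. Ifngr2 (ENSMUSG00000022965, chromosome 16, 91547072 to 91565623) was at 198.8 and 193.0 CPM in WT and at 225.2 and 208.3 CPM in Trex1-KO. Both knockout libraries were above both WT libraries, but the log2 fold change of 0.15 (interval 0.01 to 0.28) was not called (adjusted p = 0.139). With 1 library left out the Ifngr2 value ran from 0.08 to 0.20.

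Among the feedback genes, Socs1 (ENSMUSG00000038037, chromosome 16, 10782240 to 10785536, minus strand) had 10 and 13 counts in WT against 24 and 35 counts in Trex1-KO. These correspond to 0.736 and 0.881 CPM in WT and to 1.81 and 2.31 CPM in Trex1-KO, so that both knockout libraries were above both WT libraries. The log2 fold change was 1.34 with an interval of 0.44 to 2.25 (SE 0.420, adjusted p = 0.0444). With so few counts the size of this difference was poorly fixed, and the call was lost with total counts alone (1.26, adjusted p = 0.0556), with DESeq2 (1.35, adjusted p = 0.160), and without WT replicate 1 (1.21, adjusted p = 0.221), WT replicate 2 (1.47, 0.149), Trex1-KO replicate 1 (1.49, 0.0801) or Trex1-KO replicate 2 (1.15, 0.209).

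Socs3 (ENSMUSG00000053113, chromosome 11, 117966079 to 117970047, minus strand) had 197 and 142 counts in WT and 150 and 156 in Trex1-KO. Its level was 14.5 and 9.62 CPM in WT and 11.3 and 10.3 CPM in Trex1-KO, with the WT libraries on either side of the knockout libraries. The log2 fold change of -0.16 (interval -0.67 to 0.36) was not called (adjusted p = 0.733), and it was 0.15 without WT replicate 1 and -0.44 without WT replicate 2. Cish (ENSMUSG00000032578, chromosome 9, 107296026 to 107302784) had 32 and 25 counts in WT and 14 and 20 in Trex1-KO, that is 2.36 and 1.69 CPM against 1.06 and 1.32 CPM. Both knockout libraries were below both WT libraries, the reverse of Socs1, yet the log2 fold change of -0.75 (interval -1.73 to 0.23) was not called (adjusted p = 0.320). Cish lies 1.76 Mb from Trex1 on chromosome 9. Of 133 tested genes within 5 Mb of Trex1, 30 were called between Trex1-KO and WT, or 22.6%, where 16.4% of all tested genes were called. For genes this close an effect of the targeted region and an effect of Trex1 loss cannot be told apart. Of the exonic bases of Cish, 11.5% overlap the genes Gm17040 and Gm17041, which had 0 to 3 and 0 counts per library.

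**Figure D2:**
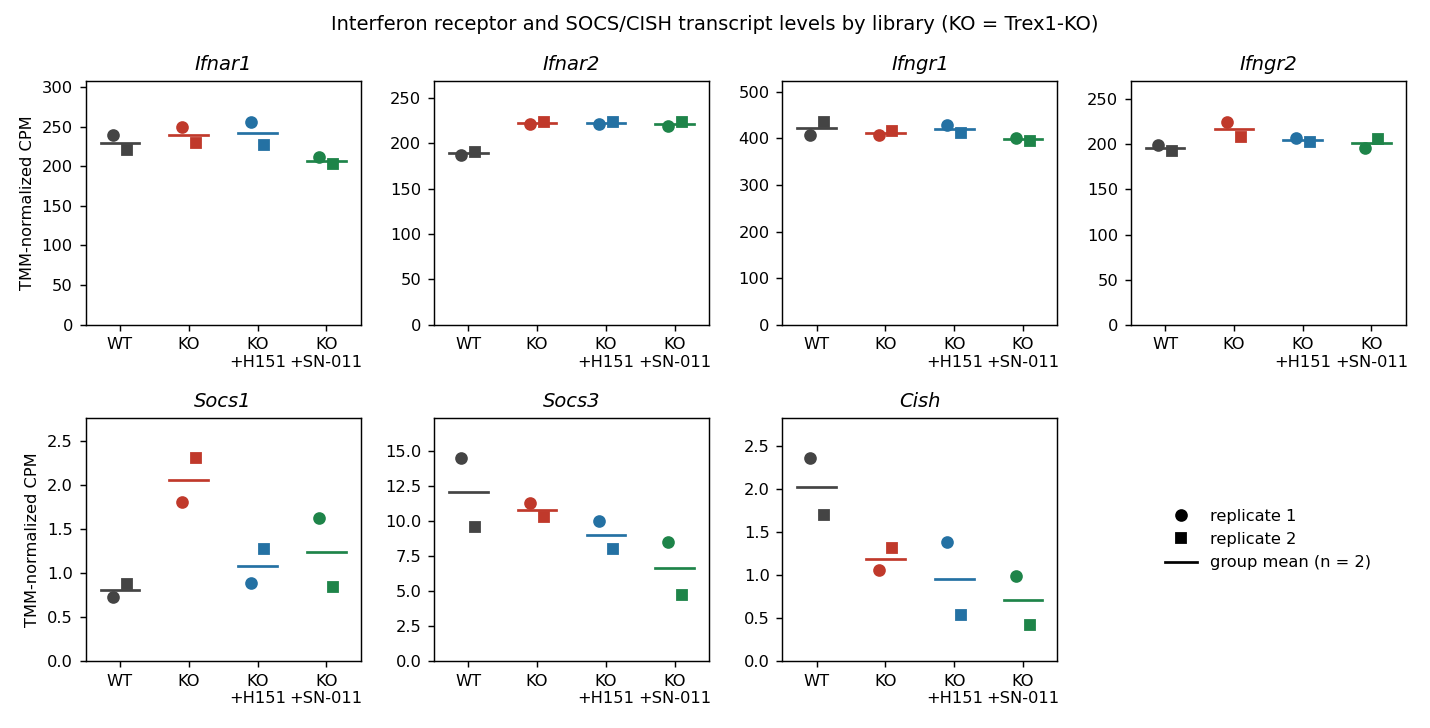
TMM-normalized CPM of each of the 7 genes (vertical axes start at 0) in the 4 groups; circles are replicate 1, squares replicate 2 and lines the group mean (n = 2). Ifnar2 is at 187.0 and 190.9 CPM in WT and at 219.1 to 224.0 CPM in the 6 knockout libraries, while Socs1 is highest in the Trex1-KO libraries at 1.81 and 2.31 CPM.

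The H151 libraries were set against the vehicle libraries of Trex1-KO cells. None of the 7 genes was called by edgeR, where 2.23% of all tested genes were called. At an unadjusted p under 0.05 there was 1 gene, Socs1, and DESeq2 and edgeR's exact test called 0. Socs1 had 11 and 19 counts with H151, or 0.896 and 1.28 CPM, below both Trex1-KO libraries, and its log2 fold change was -0.91 (interval -1.78 to -0.04, adjusted p = 0.490). Both H151 libraries lay below both Trex1-KO libraries for Socs1, Socs3 and Ifngr2, that is 3 of 7 genes and none above, where 35.4% of all tested genes did not overlap and 17.9% lay below. Socs3 was at 10.0 and 8.06 CPM (log2 fold change -0.26, interval -0.79 to 0.27, adjusted p = 0.888), and its value ran from -0.42 to -0.11 with 1 library left out. Ifngr2 was at 207.3 and 202.3 CPM (log2 fold change -0.08, interval -0.21 to 0.05, adjusted p = 0.813).

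The other genes overlapped between H151 and vehicle. Ifnar2 was at 221.4 and 223.9 CPM with H151, with a log2 fold change of 0.0009 (interval -0.12 to 0.12, adjusted p = 0.999). Against WT, Socs1 with H151 was not called (0.43, interval -0.57 to 1.43, adjusted p = 0.634), and its value ran from 0.13 to 0.64 with 1 library left out. Ifnar2 with H151 was called higher than in WT, by 0.24 on the log2 scale (adjusted p = 0.0121). That was 1 of 7 genes called against WT, where 11.8% of all tested genes were called and 6.79% called higher (990 higher and 736 lower, or 715 and 998 with total counts alone). The Ifnar2 call against WT was lost with total counts alone (0.18, adjusted p = 0.0585), without WT replicate 1 (0.21, adjusted p = 0.128) and without WT replicate 2 (0.24, adjusted p = 0.0689). Ifnar1 was at 256.1 and 227.2 CPM (log2 fold change against vehicle 0.01, interval -0.14 to 0.17, adjusted p = 0.992) and Ifngr1 at 427.9 and 411.6 CPM (0.03, interval -0.09 to 0.15, adjusted p = 0.963). Cish, with 17 and 8 counts or 1.39 and 0.537 CPM, spread over more than the Trex1-KO range (log2 fold change -0.35, interval -1.46 to 0.76, adjusted p = 0.948), and its value was -1.14 without H151 replicate 1 and 0.21 without H151 replicate 2.

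SN-011 was compared with the same vehicle libraries, which the H151 comparison therefore shares. None of the 7 genes was called by edgeR, where 2.33% of all tested genes were called. Ifnar1 and Socs3 were the 2 genes with an unadjusted p under 0.05, and DESeq2 and edgeR's exact test called 0. Both SN-011 libraries lay below both Trex1-KO libraries for 6 of the 7 genes, all but Ifnar2, where 43.4% of all tested genes did not overlap and 21.6% lay below. Ifnar1 was at 211.4 and 202.3 CPM, a log2 fold change of -0.21 (interval -0.37 to -0.05, adjusted p = 0.227). Socs3 had 147 and 56 counts, or 8.55 and 4.76 CPM, a log2 fold change of -0.66 (interval -1.20 to -0.11, adjusted p = 0.294). SN-011 replicate 2 had the lowest Socs3 level of all 8 libraries. With every gene of at least 1 count kept, Socs3 was called lower (log2 fold change -0.65, adjusted p = 0.0152), the single call for it under 15 alternatives. Without SN-011 replicate 1 the Socs3 value was -1.18 (adjusted p = 0.129), and without SN-011 replicate 2 it was -0.33 (adjusted p = 0.733).

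Ifnar2 stayed at 219.1 and 223.5 CPM with SN-011 (log2 fold change -0.01, interval -0.13 to 0.11, adjusted p = 0.973). Socs1 had 28 and 10 counts, or 1.63 and 0.849 CPM (log2 fold change -0.68, interval -1.52 to 0.15, adjusted p = 0.522). SN-011 replicate 2 lay within the WT range of Socs1, and replicate 1 lay between WT and Trex1-KO. Cish had 17 and 5 counts, or 0.989 and 0.425 CPM (log2 fold change -0.67, interval -1.81 to 0.46, adjusted p = 0.661). Without SN-011 replicate 1 the Socs1 and Cish values were -1.28 and -1.47, and without SN-011 replicate 2 they were -0.34 and -0.27. Ifngr2 was at 196.4 and 205.9 CPM (log2 fold change -0.11, interval -0.24 to 0.02, adjusted p = 0.521). Ifngr1 was at 401.8 and 395.2 CPM (log2 fold change -0.04, interval -0.17 to 0.08, adjusted p = 0.811).

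Against WT, Ifnar2 was called higher with SN-011, by 0.23 on the log2 scale (adjusted p = 0.0144), which is 1 of 7 genes where 11.7% of all tested genes were called and 6.18% called higher (902 higher and 812 lower, or 703 and 1042 with total counts alone). This call was lost with total counts alone (0.17, adjusted p = 0.0681), without WT replicate 1 (0.20, adjusted p = 0.145), without WT replicate 2 (0.23, adjusted p = 0.0737), without SN-011 replicate 1 (0.24, adjusted p = 0.0754) and without SN-011 replicate 2 (0.20, adjusted p = 0.150). Socs3 had a log2 fold change of -0.81 against WT (interval -1.35 to -0.27) and just missed the threshold (adjusted p = 0.0515), and Cish had -1.43 (interval -2.48 to -0.37, adjusted p = 0.0825). Socs3 passed the threshold under 12 of 15 alternatives and Cish under 5 of 15. Without SN-011 replicate 1 the Socs3 value was -1.34 (adjusted p = 0.0165), without WT replicate 1 it was -0.51 (adjusted p = 0.413), and without SN-011 replicate 2 it was -0.50 (adjusted p = 0.334). For Cish, leaving out each library gave -2.22 (without SN-011 replicate 1, adjusted p = 0.0998) to -1.03 (without SN-011 replicate 2, adjusted p = 0.380), and the value was called without H151 replicate 2 (-1.43, adjusted p = 0.0467). Both SN-011 libraries lay below both WT libraries for 4 genes (Ifnar1, Ifngr1, Socs3 and Cish) and above them for Ifnar2, where 54.3% of all tested genes did not overlap, with 28.8% above and 25.5% below. With H151, 3 genes lay above WT and 1 below, where 52.1% did not overlap, with 26.7% above and 25.4% below.

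**Figure D3:**
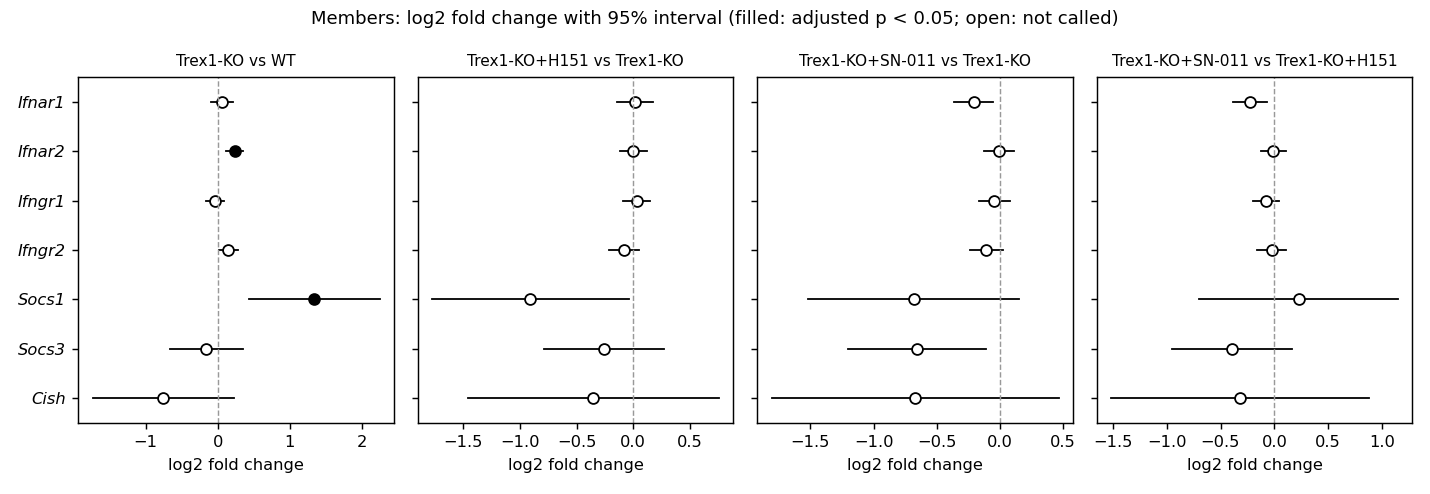
Log2 fold change of each gene in 4 comparisons (horizontal axes, which differ in range) with 95% intervals from edgeR's quasi-likelihood fit (n = 2 per group); filled points are called and open points are not. Ifnar2 (0.24) and Socs1 (1.34) in Trex1-KO against WT are the called values, and intervals are wide for Socs1 and Cish and narrow for the receptor chains.

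The antagonists were compared with each other directly. None of the 7 genes was called by edgeR, where 0.158% of all tested genes were called. At an unadjusted p under 0.05 there was 1 gene, Ifnar1, and DESeq2 and edgeR's exact test called 0. Ifnar1 was lower with SN-011 than with H151 in both libraries, by a log2 fold change of -0.22 (interval -0.38 to -0.07, adjusted p = 0.435), and without H151 replicate 2 this value was -0.31 and was called (adjusted p = 0.0491), while without H151 replicate 1 it was -0.13 (adjusted p = 0.998). Over all 15 alternatives its adjusted p ran from 0.0491 to 0.998. Ifnar1 and Ifngr1 were the 2 genes whose SN-011 libraries both lay below both H151 libraries, where 39.7% of all tested genes did not overlap and 20.0% lay below. Ifngr1 differed by -0.07 (interval -0.20 to 0.05), Ifngr2 by -0.03 (interval -0.16 to 0.11) and Ifnar2 by -0.01 (interval -0.13 to 0.11). For the feedback genes the intervals were too wide to show that the antagonists acted alike: Socs1 differed by 0.22 (interval -0.70 to 1.15), Socs3 by -0.39 (interval -0.95 to 0.16) and Cish by -0.32 (interval -1.52 to 0.88). Leaving out 1 library gave -0.37 to 0.57 for Socs1, -0.92 to -0.07 for Socs3 and -1.12 to 0.47 for Cish.

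Ifnar2 separated WT from all 6 knockout libraries. It was set beside marker lists of other cells that were picked because they do the same. The macrophage marker Cd68 did so too, at 772.6 and 802.8 CPM in WT and at 1012 to 1127 CPM in the knockout libraries. Over all tested genes, 56.1% did not overlap between Trex1-KO and WT. Of 8 neutrophil markers, 5 passed the filter and all 5 were called higher in Trex1-KO against WT, with a median log2 fold change of 2.89 against -0.00196 over all tested genes, and with either antagonist against vehicle edgeR, DESeq2 and the exact test called 0 of the 5 and 0 had an unadjusted p under 0.05. S100a9, a calcium-binding protein of neutrophils and monocytes, had 37 and 47 counts in WT and 226 to 434 in the knockout libraries. The defining markers Ly6g, Mpo and Elane had 0 to 3 counts in WT and 0 to 11 in the knockout libraries. Of 6 stromal cell markers, 5 were called lower in Trex1-KO against WT, among them Col1a2, a collagen chain, with a log2 fold change of -1.30 (SE 0.0919, adjusted p = 2.94e-07). Osmr, Lif, Lepr and Timp1, reported below, were also called lower in Trex1-KO against WT. The median log2 fold change of the 6 stromal cell markers was -1.17. The part of these other cells in the levels of Ifnar2, Socs1, Socs3, Cish and the genes reported below was not tested.

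The remaining marker lists were low. T cell and NK cell markers summed to 33.3 and 34.0 CPM in WT and to 18.2 to 21.7 CPM in the knockout libraries. Nearly all of this sum was Cd4, at 33.9 and 33.3 CPM in WT, and the other 7 genes of the list, the defining T cell genes Cd3d, Cd3e and Cd3g among them, had 0 to 3 counts per library. Cd4 was the member of that list that passed the filter and was called lower in Trex1-KO (log2 fold change -0.68, adjusted p = 3.29e-04). Sums were 2.28 to 5.18 CPM for B cell markers, 1.69 to 3.70 CPM for dendritic cell markers, 0.442 to 1.81 CPM for mast cell and basophil markers and 3.31 to 5.98 CPM for erythroid and megakaryocyte markers. Between Trex1-KO and WT, Xcr1 and Clec9a of the dendritic cell list were called higher, at log2 fold changes of 2.88 and 2.60. Zbtb46, the other gene of that list that was tested, had 26 and 14 counts in WT and 8 and 8 in Trex1-KO (log2 fold change -1.32, adjusted p = 0.0951), and with the filter at 1 count 1 gene of the list was called lower. In Trex1-KO against WT no gene of the B cell, mast cell and basophil, or erythroid and megakaryocyte lists was called by edgeR, DESeq2 or the exact test, with 1 erythroid or megakaryocyte gene at an unadjusted p under 0.05. Ppbp, a platelet chemokine, had 11 and 23 counts in WT and 41 and 54 with H151 and was called higher in H151 against WT (log2 fold change 1.54, adjusted p = 0.00819), and the exact test and the filter at 1 count each called 1 gene of its list higher in SN-011 against WT. Of the 9 macrophage markers 3 were called higher, Fcgr1 (1.14), Cd68 (0.44) and Adgre1 (0.19).

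**Figure D4:**
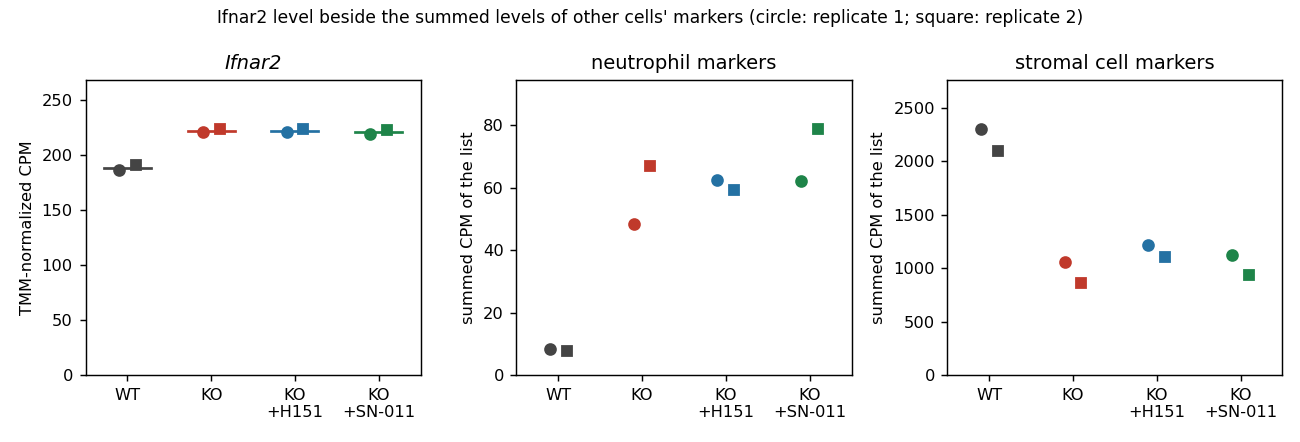
Ifnar2 (TMM-normalized CPM) beside the summed CPM of the neutrophil and stromal cell marker lists in each library; circles are replicate 1, squares replicate 2, lines the Ifnar2 group mean, and all axes start at 0. All 3 panels separate the 2 WT libraries from the 6 knockout libraries, with neutrophil markers at 7.66 and 8.39 CPM in WT and at 48.4 to 78.7 CPM elsewhere. The marker lists were picked for this separation.

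The genes whose log2 CPM over the 8 libraries was most like that of each member were found among tested genes with a mean log2 CPM of at least 2, by Pearson's r. The values are descriptions, since libraries of a group share their treatment. Ifnar2 was most like Ngp, a neutrophil granule protein (r = 0.997), and Psap, the precursor of the saposins of lysosomes, was also among its nearest genes (r = 0.996). Ngp was at 1.47 and 1.76 CPM in WT and at 17.7 and 20.1 CPM in Trex1-KO, a far larger separation than that of Ifnar2. Socs1 was most like Spata5l1 (r = 0.997), Abi1 (r = 0.961) and Gm8822 (r = 0.952). Socs3 was most like Zfp770 (r = 0.967), Nemp2 (r = 0.960) and Rfc5 (r = 0.952), and Cish was most like Slc20a2, a phosphate transporter (r = 0.941), Shb, a signalling adaptor (r = 0.940), and Acad9 (r = 0.939). Ifnar1 was most like Usp34 (r = 0.977), Nutf2 (r = 0.975) and Vamp2 (r = 0.971), Ifngr1 most like the histone deacetylase Hdac2 (r = 0.979), Josd1 (r = 0.966) and Pde3b (r = 0.963), and Ifngr2 most like Gatad2a (r = 0.986), Endod1 (r = 0.978) and Rufy3 (r = 0.971). Among the 7 genes themselves, Cish and Socs3 varied most alike (r = 0.870), and Cish and Ifnar2 varied in opposite directions (r = -0.728).

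The ligands of the receptors were at or near 0. Of 21 interferon genes listed (type I, II and III), none passed the filter, 17 had 0 counts in all 8 libraries, and the summed counts of all 21 were 0 to 5 per library. Ifnb1, which encodes interferon beta, had 0 to 2 counts per library and Ifng 0 to 1. A sum of 5 counts, in Trex1-KO replicate 2, was the highest, and it came in part from Ifnk with 3 counts. Differences in ligand transcripts were therefore not detectable at this depth. Genes of the interferon alpha family are near-identical copies, and read pairs that fit several of them were not counted, so their counts of 0 are uncertain.

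Downstream of the receptors, a list of Janus kinases, STATs and Irf9 was followed, and Stat2 and Irf9 were among its genes called in Trex1-KO against WT. Of the 12 genes of that list, all tested, 5 were called higher in Trex1-KO against WT and none lower. With H151 3 were called lower than with vehicle, and with SN-011 2. The exact test and the filter at 1 count each called 3 lower with H151 and 4 lower with SN-011. The median log2 fold changes in these comparisons were 0.19, -0.06 and -0.10, beside medians of all tested genes of -0.00196, 0.00123 and 0.00875. For this list and those below, 16.4% of all tested genes were called in Trex1-KO against WT and 9.27% were called higher. With H151 and SN-011 against vehicle the shares called were 2.23% and 2.33%. Stat2, which signals below the type I receptor, was at 117.6 and 109.1 CPM in WT, at 350.4 and 321.9 CPM in Trex1-KO, at 159.1 and 165.6 CPM with H151 and at 168.2 and 173.1 CPM with SN-011. The groups did not overlap between vehicle and either antagonist, and the antagonist levels remained above WT. Its log2 fold change was 1.57 in Trex1-KO against WT (SE 0.0663, adjusted p = 3.24e-09), -1.05 with H151 (SE 0.0650, adjusted p = 6.33e-06) and -0.98 with SN-011 (SE 0.0648, adjusted p = 1.04e-05). Irf9, the DNA-binding partner of STAT2, rose by 0.61 on the log2 scale in Trex1-KO and fell by 0.41 with H151, and its value with SN-011 was -0.25 (adjusted p = 0.0788). With total counts alone, 3 of the 12 were called higher in Trex1-KO. Between the antagonists edgeR, DESeq2 and the exact test called none of the 12, and 2 had an unadjusted p under 0.05. Against WT 3 were called higher with H151, among them Stat2 and Stat6, and 3 with SN-011, among them Stat2 and Irf9.

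Of the 5 other members of the SOCS family, Socs2 and Socs7 were called between Trex1-KO and WT, in opposite directions. Socs2, a feedback gene of growth hormone and STAT5 signalling, had 109 and 104 counts in WT, 59 and 43 in Trex1-KO, 42 and 49 with H151 and 73 and 41 with SN-011. All 6 knockout libraries were below both WT libraries, the same side as Cish. Its log2 fold change was -1.06 in Trex1-KO (SE 0.233, adjusted p = 0.0059), -1.16 with H151 against WT (adjusted p = 0.0049) and -0.95 with SN-011 against WT (adjusted p = 0.0147). Socs7 was higher in Trex1-KO by 0.32 (adjusted p = 0.0330), a call that the exact test also made and that total counts alone, DESeq2 and the filter at 1 count did not. Socs4, Socs5 and Socs6 were not called. With either antagonist against vehicle edgeR called none of the 5, 1 gene had an unadjusted p under 0.05 in each comparison, DESeq2 called none, and the exact test called 1 lower with H151 and none with SN-011. Between the antagonists all 3 tests called none, with none at an unadjusted p under 0.05. The 4 partners that build a ubiquitin ligase with SOCS proteins (Elob, Eloc, Cul5 and Rnf7) were called in no comparison by edgeR or DESeq2. At an unadjusted p under 0.05 there was 1 of the 4 in Trex1-KO against WT, in H151 against WT and in SN-011 against H151, and 1 of them was called lower in H151 against WT by the exact test, with total counts alone and with the filter at 1 count, and 1 in Trex1-KO against WT with total counts alone.

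Of 13 other brakes on JAK-STAT signalling, 3 were called higher in Trex1-KO against WT and none lower, or 3 and 1 with total counts alone. Usp18, which binds IFNAR2 and blocks signalling from the type I receptor, was at 17.2 and 14.3 CPM in WT, at 97.6 and 96.6 CPM in Trex1-KO, at 31.4 and 48.2 CPM with H151 and at 47.7 and 50.3 CPM with SN-011. The antagonist libraries lay between the other groups without overlap. Its log2 fold change was 2.63 in Trex1-KO (SE 0.156, adjusted p = 5.72e-08), -1.28 with H151 against vehicle (SE 0.140, adjusted p = 1.16e-04) and -0.99 with SN-011 (SE 0.138, adjusted p = 0.00092). Ptprc, the phosphatase CD45, and Ptpn6, the phosphatase SHP-1, rose by 0.58 and 0.32 on the log2 scale in Trex1-KO. Ptprc fell by 0.24 with SN-011 and had -0.17 with H151 (adjusted p = 0.155), and Usp18 was the gene of this list called with H151. Against WT, Usp18 and Ptprc were called higher with either antagonist. Between the antagonists edgeR, DESeq2 and the exact test called none of the 13, with none at an unadjusted p under 0.05.

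Other receptor chains of the JAK-STAT family moved in both directions. Of 25 listed, 23 were tested, and 9 were called higher and 3 lower in Trex1-KO against WT, or 6 higher and 3 lower with total counts alone. Il2rg, the common gamma chain, was at 39.9 and 33.6 CPM in WT and at 89.3 and 82.6 CPM in Trex1-KO (log2 fold change 1.23, SE 0.0917, adjusted p = 5.02e-07). Osmr, the oncostatin M receptor, was at 12.4 and 8.81 CPM in WT and at 4.83 and 4.81 CPM in Trex1-KO (log2 fold change -1.14, SE 0.247, adjusted p = 0.00545). Lepr, the leptin receptor, had 20 and 12 counts in WT and 0 and 2 in Trex1-KO and was called lower (adjusted p = 0.00757), at counts too low to fix the size of the difference. With H151 against vehicle edgeR called 1 chain higher, Il7r (log2 fold change 0.46, adjusted p = 0.0195), and 0 lower, with 7 of the 23 at an unadjusted p under 0.05. DESeq2 called 0 lower, and the exact test and the filter at 1 count each called 2 lower. With SN-011 edgeR called 3 lower, namely Il21r (-0.51), Il13ra1 (-0.51) and Il2rg (-0.49), with 8 of the 23 at an unadjusted p under 0.05. DESeq2 called 2 lower, the exact test 3 and the filter at 1 count 6. Il7r had 0.01 with SN-011 (adjusted p = 0.974), and with H151 Il21r had 0.03 (adjusted p = 0.976) and Il2rg -0.35 (adjusted p = 0.0588). Il13ra1 was at 25.5 and 21.6 CPM in Trex1-KO, at 16.5 and 17.5 CPM with H151 (log2 fold change -0.46, adjusted p = 0.0678) and at 16.6 and 16.4 CPM with SN-011 (adjusted p = 0.0369), and the antagonists overlapped. Between the antagonists 3 chains were called, all lower with SN-011: Il21r (-0.55, adjusted p = 0.0210), Csf2rb, the common beta chain (-0.43, adjusted p = 0.0117), and its close copy Csf2rb2 (-0.33, adjusted p = 0.0455). Over all tested genes 0.158% were called. The number of chains depended on the setting: total counts alone called 2 lower, DESeq2 4, and the exact test and the filter at 1 count 5 each. Reads of the near-identical Csf2rb and Csf2rb2 could be split between them. With H151, 9 chains were called above WT and 2 below it, and with SN-011 6 above and 3 below. Total counts alone gave 9 above and 2 below with H151, and 4 above and 4 below with SN-011.

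Of 15 cytokines that signal through these chains, 8 were tested, and 3 were called higher and 2 lower in Trex1-KO against WT. Il10, an anti-inflammatory cytokine that acts through STAT3, had 41 and 43 counts in WT and 100 and 104 in Trex1-KO (log2 fold change 1.28, adjusted p = 8.77e-04). Lif, a ligand of the gp130 family, fell by 1.38 on the log2 scale in Trex1-KO. Il7 had 24 and 23 counts in WT and 8 and 8 in Trex1-KO (log2 fold change -1.54, SE 0.473, adjusted p = 0.0399). At such counts the size of its difference was poorly fixed. DESeq2 called 3 of these cytokines higher and 1 lower. With H151 against vehicle edgeR, DESeq2 and the exact test called none of the 8, and with SN-011 they called none, none and 1 lower, with 3 at an unadjusted p under 0.05 in each comparison. Between the antagonists none was called by the 3 tests and none had an unadjusted p under 0.05. With H151, 1 cytokine was called above WT and 2 below it, and with SN-011 2 below.

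Known target genes of STAT3 and STAT5, factors that also switch on feedback genes, were counted by list. Of 9 STAT3 targets, 3 were called higher and 3 lower in Trex1-KO against WT, among them Timp1, a metalloproteinase inhibitor (-1.34), Osmr, also counted among the receptor chains, and Pim1, a kinase (0.46), and with total counts alone 1 was called higher and 3 lower, with DESeq2 1 and 2. With H151 against vehicle the median log2 fold change of the 9 was -0.29, beside 0.00123 over all tested genes, and 6 of the 9 had an unadjusted p under 0.05. EdgeR called 1 of them, Timp1, which was higher (0.44, adjusted p = 0.0471), a call that DESeq2 did not make. The exact test called 1 of the 9 lower and the filter at 1 count 4 lower. With SN-011 the median was -0.28, beside 0.00875 over all tested genes, 7 of the 9 had an unadjusted p under 0.05, and edgeR called Pim1 (-0.55) and the AP-1 factor Junb (-0.36) lower. The values of these genes with the other antagonist were 0.40 for Timp1 with SN-011 (adjusted p = 0.0817), and -0.43 for Pim1 and -0.29 for Junb with H151 (adjusted p = 0.0822 and 0.155). With total counts alone 1 of the 9 was called lower with SN-011, the exact test called 1 higher and 2 lower, and with the filter at 1 count 1 was called higher and 3 lower. Of 7 STAT5 targets, 6 were tested, and 4 were called higher and 1 lower in Trex1-KO. The lower gene was Socs2, and Bcl6, a transcriptional repressor (0.56), and Pim1 were among the higher. With H151 the cell cycle inhibitor Cdkn1a was called lower (-0.30, adjusted p = 0.0299), and Cdkn1a had -0.27 with SN-011 (adjusted p = 0.0539), where Pim1 was the gene called lower. Between the antagonists no STAT3 or STAT5 target was called by edgeR, DESeq2 or the exact test, with none at an unadjusted p under 0.05. Against WT, 3 STAT3 targets were called lower with H151 and 4 with SN-011, and 2 STAT5 targets were called higher and 1 lower with either antagonist.

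**Figure D5:**
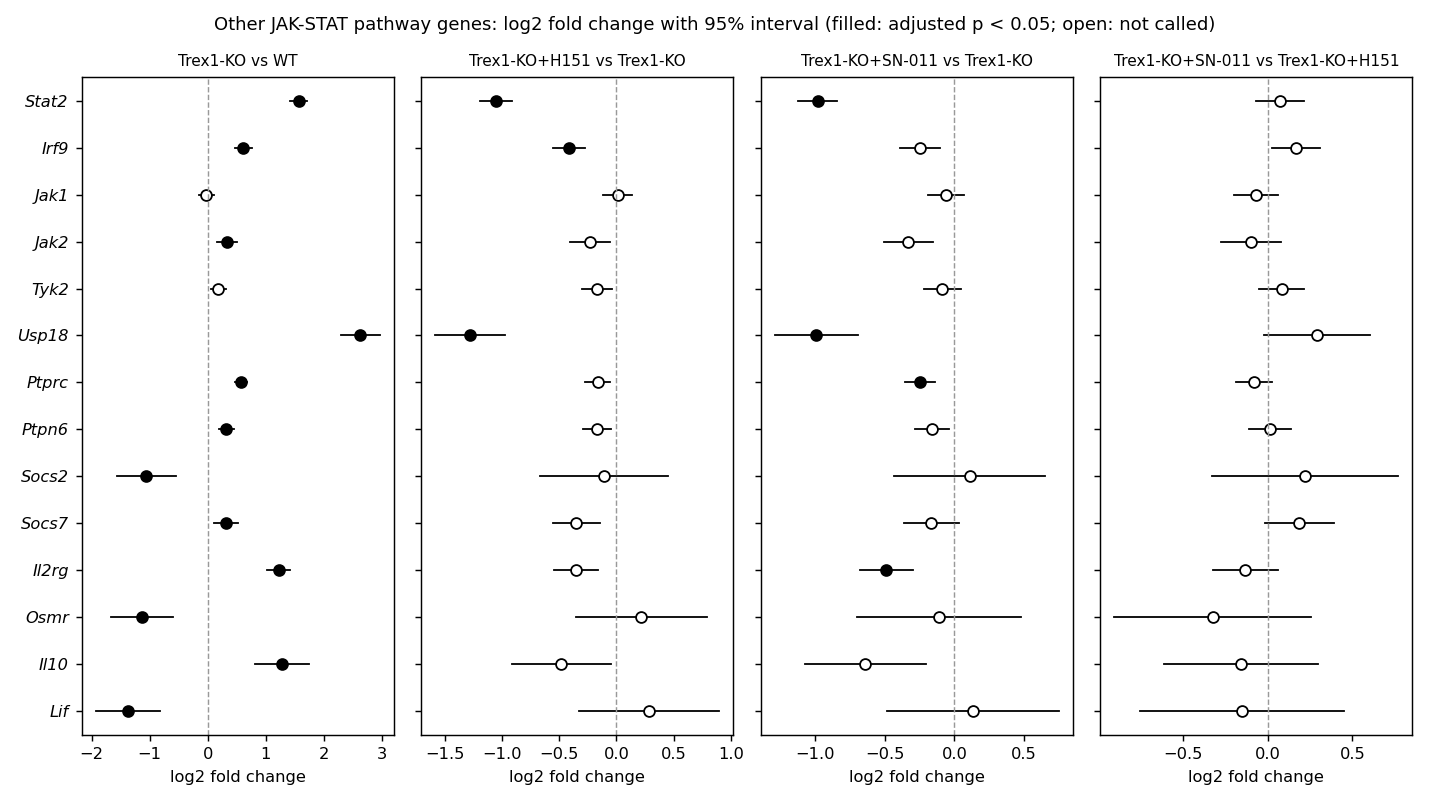
Log2 fold change with 95% interval of 14 other genes of the pathway in 4 comparisons (horizontal axes, which differ in range; n = 2 per group); filled points are called and open points are not. Stat2 and Usp18 are called higher in Trex1-KO and lower with each antagonist, while Socs2, Osmr and Lif are called lower in Trex1-KO and are not called with either antagonist against vehicle. The part of stromal cells in these values was not tested.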

How the data were processed

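Poly(A) RNA was sequenced from 8 BMDM libraries. Per the labels and the study's methods, the authors trimmed read pairs with Trimmomatic, aligned them to mm10 with HISAT2 and deposited raw read counts per gene; the processing notes name HTSeq and the methods name featureCounts, and the strand setting is not given in the sources used here. Of 54532 gene identifiers, 54495 were found in GENCODE release 21 of the mouse annotation, which gave positions and exonic lengths. Pairs that fit several places were not counted, which lowers near-identical and overlapping genes.

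From these counts, edgeR 4.0.16 (R 4.3.3, limma 3.58.1) fitted all 8 libraries with 1 mean per group, after filterByExpr (minimum count 10, total 15) and TMM (factors 0.973 to 1.04). A two-sided quasi-likelihood F-test gave Benjamini-Hochberg adjusted p-values over 14591 genes (threshold 0.05), and SEs and 95% intervals came from its F statistic. Log2 CPM for likeness used a prior count of 2. Tables and sequences were handled with Python 3.11.15 and pandas 2.3.3. Floors cover counting error only. Alternatives were total-count scaling, DESeq2 1.42.0, edgeR's exact test, a filter at 1 count, a stricter filter at 1 CPM, only the 2 groups compared, the replicate number as a block, leaving out each of the 8 libraries, and a prior count of 0.5 for likeness.

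The members and lists were chosen with earlier results of these data known. The genes named were the 7 members, the targeted gene, up to 3 called genes of largest absolute log2 fold change per list and comparison, and the 3 genes most like each member. Interferon ligands, Atrip and single marker genes, and genes named as not called, were named after their values were seen. Some items that this rule or these lists hold are not reported here.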

Additional observations from a re-analysis of the deposited data

How the results depend on the processing

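Of 630 values of the 7 genes under 15 alternatives, 592 kept their side of the threshold, 19 lost a call and 19 gained one. No called value changed sign, and 26 of the 592 changed sign without being called in either setting. Genes called with a filter at 1 count were 525 for H151 against vehicle, 679 for SN-011 against vehicle and 266 between the antagonists, and between the antagonists 38 with DESeq2, 84 with the exact test and 44 with a replicate block. Of the 7 genes, 0 were called in Trex1-KO against WT and 0 in H151 against WT with total counts only, and 1 in Trex1-KO against WT with DESeq2. In SN-011 against vehicle 1 was called, lower, with a filter at 1 count. In SN-011 against WT, 2 were called with DESeq2, 1 higher and 1 lower. The exact test and the filter at 1 count each called 3, 1 higher and 2 lower. The replicate block and only the 2 groups compared also gave 3 each. In the main fit 16.4%, 11.8% and 11.7% of all tested genes were called in Trex1-KO, H151 and SN-011 against WT. In SN-011 against vehicle the main fit called 2.33%. The cause of the shifts between settings was not tested.

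Leaving out each library in turn gave 1556 to 2651 genes called in Trex1-KO against WT, 231 to 357 for H151 and 131 to 493 for SN-011 against vehicle, 2 to 291 between the antagonists, and 971 to 1790 for H151 and 909 to 1933 for SN-011 against WT. The libraries that moved a count by over 1.5 times were WT replicates 1 and 2 (1556 and 1583 in Trex1-KO against WT, 971 and 1091 in H151 against WT), Trex1-KO replicate 1 and SN-011 replicates 1 and 2 (198, 131 and 186 in SN-011 against vehicle), WT replicate 1 and SN-011 replicates 1 and 2 (956, 1055 and 909 in SN-011 against WT), and H151 replicate 2 and SN-011 replicates 1 and 2 (291, 2 and 11 between the antagonists). Members called ranged from 0 to 2 in Trex1-KO against WT, 0 to 1 between the antagonists, 0 to 1 in H151 against WT and 0 to 3 in SN-011 against WT.

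Same-numbered libraries deviated together with correlations of 0.06 (Trex1-KO and WT), 0.19 (H151 and vehicle), -0.01 (SN-011 and vehicle) and -0.02 (between the antagonists), over 2 pairs each. The labels do not say what a number marks, and 2 pairs cannot show whether same-numbered libraries share an animal or culture, so no pairing was assumed. With the replicate block, 2611, 412, 436, 44, 1939 and 1879 genes were called in Trex1-KO against WT, H151 and SN-011 against vehicle, SN-011 against H151, and H151 and SN-011 against WT. With total-count scaling the median over all genes in Trex1-KO against WT shifted by -0.085 (log2). With 5 to 35 counts per library, Socs1 and Cish had intervals that leave large changes undetected.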
